A study of Mus musculus with 4 samples.

Results

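The mitochondrial chromosome of the mouse carries 37 genes, of which 13 encode proteins, 22 encode transfer RNAs (tRNAs) and 2 encode ribosomal RNAs (rRNAs). They were selected as the genes that the mouse annotation places on that chromosome, and all 37 were present among the 48526 genes of the count tables. RNA-seq counts of R1 ESCs, mouse embryonic stem cells of an established line, were compared between wild-type cells (WT) and *Zfp296* CRISPR KO clone 2 (KO2), which the labels describe as R1 ESCs as well. *Zfp296* encodes a zinc finger protein that binds the NuRD chromatin complex. Each group holds 2 libraries labelled as biological replicates of total RNA, so that p-values measure the spread between these libraries only. KO2 is a single clone obtained by transfection of a Cas9 plasmid with a guide RNA against the first exon and puromycin selection, and an effect of the gene cannot be told apart from other differences of this clone. According to the methods, ESCs were kept in serum with LIF and the inhibitors PD0325901 and CHIR99021, which hold them undifferentiated, and ribosomal RNA was depleted with Ribo-Zero before library preparation.

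Counts on genes summed to between 2829914 and 7470907 per library, and both WT libraries were shallower than both KO2 libraries. For *Zfp296* itself, 31 counts were found in each WT library and 416 and 282 in the libraries labelled KO2, a log2 fold change of 2.31 (SE 0.28, adjusted p = 4.55e-05 by the quasi-likelihood test of edgeR). The RNA of the targeted gene was thus 4.97-fold higher in the libraries labelled KO2, so that the RNA level gives no sign of its loss. A small CRISPR edit cannot be seen in gene counts, so that the knockout itself was not checked here. The study reports that its KO clones were sequenced and checked by mass spectrometry. KO2 below stands for the libraries labelled KO2, and every direction given is that of these libraries against WT. Counts of the Y-linked gene *Ddx3y* were 0 and 1 in WT, against 1979 and 2197 in KO2, so that the groups also differed in Y-linked RNA, although both are labelled as R1 ESCs. Of the ESC markers, 8 of 8 were tested and 1, *Sox2*, was lower in KO2. Their summed level was 5677 to 6108 CPM (counts scaled to library size) in the 4 libraries, whereas the fibroblast markers summed to at most 3.54 CPM, with *Postn* at 0, and the primitive endoderm markers to at most 3.68 CPM, with *Afp* at 0. The neural progenitor markers summed to 86.7 to 97.6 CPM in WT and to 115 to 121 CPM in KO2, mostly *Nes*, with *Olig2* at 0. The part of these differences in the results below was not tested.

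Mitochondrial DNA is a small circle that is transcribed from both strands into long polycistronic RNAs. The RNase P complex and the ELAC2 nuclease cut these precursors at the tRNAs, which lie between most of the rRNA and protein-coding genes, and the released pieces then become mature RNAs with their own lifetimes. The proteins encoded by this chromosome are subunits of respiratory complexes I, III, IV and V, while all other subunits and the whole apparatus for transcription, processing and translation are encoded in the nucleus. Because most of the genes leave no gap between them, some also share bases with a neighbour.

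Genes that share bases are shown first, since reads over shared bases cannot be given to a single gene by sequence alone. All coordinates are those of NCBIM37 (mm9), whose mitochondrial chromosome is 16299 bp long and lists the same 37 genes. *mt-Nd5* (chrM:11742-13565, plus strand) and *mt-Nd6* (chrM:13552-14070, minus strand) overlap tail to tail by 14 bp. *mt-Atp8* and *mt-Atp6* overlap by 43 bp, and *mt-Nd4l* and *mt-Nd4* by 7 bp, each pair on the plus strand. The end of *mt-Co1* overlaps that of *mt-Ts1*, a serine tRNA gene of the minus strand, by 3 bp. Another 5 junctions, which involve *mt-Nd1*, *mt-Ti*, *mt-Tq*, *mt-Nd2*, *mt-Tw*, *mt-Atp6*, *mt-Co3*, *mt-Ts2* and *mt-Tl2*, share at most 3 bp each and are not printed. The plus strand is printed 5′ to 3′ for the 4 junctions, with the bases that belong to both genes in capitals.
mt-Nd5 and mt-Nd6, chrM:13532-13585: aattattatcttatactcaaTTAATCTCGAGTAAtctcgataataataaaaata
mt-Atp8 and mt-Atp6, chrM:7912-7984: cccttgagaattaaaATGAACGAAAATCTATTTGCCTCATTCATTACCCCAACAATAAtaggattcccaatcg
mt-Nd4l and mt-Nd4, chrM:10147-10193: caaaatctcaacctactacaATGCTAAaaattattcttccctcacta
mt-Co1 and mt-Ts1, chrM:6850-6892: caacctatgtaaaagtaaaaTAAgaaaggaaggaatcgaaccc
The shared bases of *mt-Atp8* and *mt-Atp6*, and those of *mt-Nd4l* and *mt-Nd4*, begin with the ATG start codon of the downstream gene and end with the TAA stop codon of the upstream gene.

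First, the share of all gene counts that fell on the mitochondrial chromosome was compared. It was 1.29% and 0.925% in WT replicates 1 and 2, and 0.351% and 0.667% in KO2 replicates 1 and 2. The 95% Wilson intervals were 1.28 to 1.30%, 0.916 to 0.934%, 0.347 to 0.356% and 0.662 to 0.673%, and cover counting error only. Both KO2 libraries were below both WT libraries, with means of 0.509% ± 0.224 (SD, n = 2) and 1.11% ± 0.257 (SD, n = 2). The difference corresponds to a log2 ratio of -1.12, and its exact permutation p was 0.333 (two-sided), the smallest that 2 against 2 libraries can give. In bulk samples such as these, fewer cells of a type and less RNA per cell cannot be told apart, and the number of mitochondrial genomes per cell was not measured.

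Most of the spread within the groups came from the rRNA genes. They took 0.770% and 0.476% of gene counts in WT and 0.0576% and 0.326% in KO2, so that KO2 replicate 1 stood well below the other 3 libraries. The protein-coding genes took 0.496% and 0.425% in WT and 0.262% and 0.307% in KO2. For the sum of the tRNA genes the order was the opposite, with 0.0228% and 0.0236% in WT and 0.0319% and 0.0343% in KO2. The tRNA counts summed to 646 and 1022 in WT and to 2384 and 2551 in KO2. Of these, *mt-Ts1* held 290 and 449 in WT and 961 and 1012 in KO2, and *mt-Tm* 25 and 36 in WT and 507 and 164 in KO2. Single tRNA genes went both ways, with log2 fold changes of -2.27 to 2.29 among those tested. With the rRNA genes left out of both the numerator and the denominator, the share was 0.523% and 0.451% in WT and 0.294% and 0.343% in KO2, a log2 ratio of -0.61. The log2 ratio of the full share was -0.73 without KO2 replicate 1 and -1.66 without KO2 replicate 2. Whether the rRNA removal kit also targets the mitochondrial rRNAs is not given in the sources used here. The part of depletion in the level of these rRNAs was not tested.

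**Figure D1:**
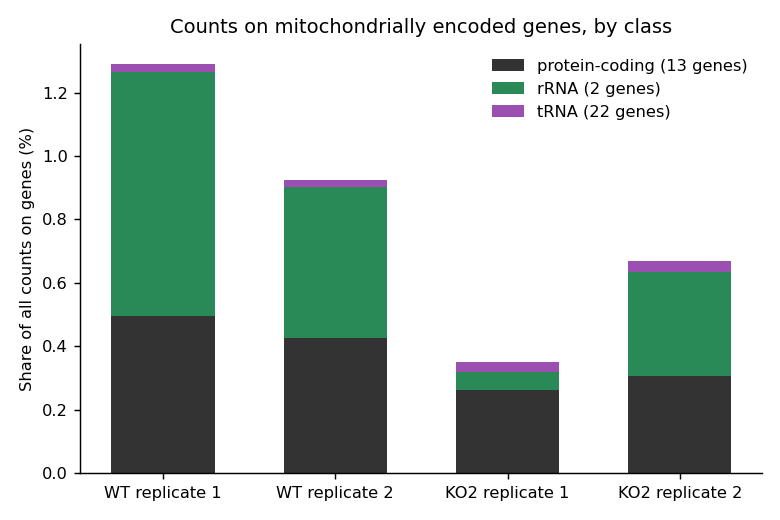
Share of all counts on genes (%, stacked bars from 0) that fell on the 13 protein-coding, 2 rRNA and 22 tRNA genes in each of the 4 libraries. The total was 1.29% and 0.925% in WT and 0.351% and 0.667% in KO2, and the rRNA segment ranged from 0.0576% to 0.770%.

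Next, each gene was tested in a fit across all 12883 genes with enough counts, in which 727 genes (5.64%) differed between KO2 and WT at an adjusted p under 0.05, with 391 (3.04%) lower and 336 (2.61%) higher. Of the 37 mitochondrially encoded genes, 30 had enough counts to be tested, and of these 11 fell, 2 rose and 17 did not pass the test. The median log2 fold change of all tested genes was 0.013, against -0.92 for the tested mitochondrial protein-coding genes and 0.40 for the tested tRNA genes. Both KO2 replicates lay below both WT replicates for 16 of the 30 tested genes (23.4% of all tested genes did so), both lay above for 5 of the 30 (25.4% of all tested genes did so), and the groups overlapped for 9. The 7 untested genes were *mt-Nd4l* and the tRNA genes *mt-Tf*, *mt-Tq*, *mt-Td*, *mt-Tk*, *mt-Tr* and *mt-Tl2*, with 0 to 11 counts in any library.

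Among the 13 protein-coding genes, 12 were tested, 8 fell in KO2 and none rose (edgeR, also 0 at an unadjusted p under 0.05 and 0 with DESeq2). The 8 genes encode subunits of 3 complexes. *mt-Nd1*, *mt-Nd2*, *mt-Nd4*, *mt-Nd5* and *mt-Nd6* encode subunits of complex I, the NADH dehydrogenase that passes electrons into the chain, and 5 of its 6 tested genes fell (median log2 fold change -1.33). *mt-Cytb* encodes cytochrome b of complex III. *mt-Atp8* and *mt-Atp6* encode membrane subunits of complex V, the ATP synthase, and both fell. None of the 3 genes of complex IV, the cytochrome c oxidase, passed the test (edgeR, 1 at an unadjusted p under 0.05, and 0 with DESeq2), and their median log2 fold change was -0.42. Whether the complexes differed from each other was not tested.

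The largest decreases were found for *mt-Nd6* and *mt-Nd5*, neighbours on opposite strands. Levels are given in CPM after TMM normalisation, which scales each library so that most genes keep the same level. *mt-Nd5* had 854 and 700 CPM in WT and 146 and 165 CPM in KO2. The groups were far apart compared to the spread within each, and the decrease was 5.00-fold (log2 fold change -2.32, SE 0.12, adjusted p = 3.53e-10, edgeR). *mt-Nd6*, the only protein-coding gene of the minus strand, had 264 and 198 CPM in WT and 32.8 and 38.8 CPM in KO2. This was a 6.43-fold decrease without overlap between the groups (log2 fold change -2.68, SE 0.16, adjusted p = 2.15e-09, edgeR). The third largest decrease among the coding genes was that of *mt-Nd4*, at 235 and 200 CPM in WT and 68.7 and 83.0 CPM in KO2 (2.86-fold, log2 fold change -1.52, SE 0.14, adjusted p = 1.17e-06, edgeR). These 3 genes were called under each of the 13 alternative settings, and they were the only ones of the 13 called genes for which this held.

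The other 5 genes decreased less. For *mt-Nd2*, WT measured 168 and 142 CPM and KO2 64.3 and 74.3 CPM (log2 fold change -1.15, SE 0.14, adjusted p = 4.55e-05, edgeR). *mt-Cytb* had 253 and 210 CPM in WT and 111 and 106 CPM in KO2 (log2 fold change -1.09, SE 0.13, adjusted p = 2.92e-05, edgeR). In both cases each KO2 library was well below each WT library. The levels of *mt-Atp6* were 71.2 and 73.0 CPM in WT and 32.7 and 40.5 CPM in KO2 (log2 fold change -0.98, SE 0.17, adjusted p = 0.00169, edgeR). *mt-Atp8* had 95.8 and 85.1 CPM in WT and 51.5 and 47.7 CPM in KO2 (log2 fold change -0.86, SE 0.15, adjusted p = 0.00191, edgeR). Both genes share the bases printed above, and how reads over these bases were counted is not known, since the overlap mode is not given. *mt-Nd1*, the coding gene nearest to the rRNA genes, had 282 and 295 CPM in WT and 181 and 206 CPM in KO2, with the smallest change of the 8 (log2 fold change -0.58, SE 0.12, adjusted p = 0.00508, edgeR). Its call was lost without WT replicate 2 (adjusted p = 0.0515) and without KO2 replicate 1 (adjusted p = 0.0506, both edgeR). All 5 genes lost their call under scaling to the ERCC spike-ins, synthetic RNAs added in known amounts, and 4 of them, all but *mt-Cytb*, lost it without a filter on low counts.

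Of the genes that did not pass, *mt-Co1*, the catalytic subunit of complex IV and the most abundant of the coding transcripts, was closest to the threshold. It had 2952 and 2385 CPM in WT and 1750 and 2239 CPM in KO2, a log2 fold change of -0.42 (SE 0.12, adjusted p = 0.0514, edgeR). It was called with RLE normalization (-0.43, adjusted p = 0.0391, edgeR), with the rRNA genes left out (adjusted p = 0.0440, edgeR) and without KO2 replicate 2 (-0.61), and it was -0.26 without WT replicate 1 and -0.25 without KO2 replicate 1. That no complex IV gene was called thus depended on the normalization and on single libraries. *mt-Co2* had 14.2 and 13.2 CPM in WT and 10.8 and 8.02 CPM in KO2 (adjusted p = 0.437, edgeR), where the groups did not overlap but the counts were only 38 to 85 per library. The groups overlapped for *mt-Co3*, at 34.7 and 47.5 CPM in WT and 27.8 and 37.3 CPM in KO2 (adjusted p = 0.389, edgeR). They overlapped also for *mt-Nd3*, at 5.96 and 5.91 CPM in WT and 3.55 and 7.89 CPM in KO2, with 16 to 59 counts per library (adjusted p = 0.966, edgeR). *mt-Nd4l*, with 3 to 6 counts per library, was not tested.

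Per kilobase of gene length, the order of the WT levels was *mt-Co1* (1727 CPM per kb), *mt-Nd6* (445), *mt-Atp8* (443), *mt-Nd5* (426), *mt-Nd1* (301), *mt-Cytb* (202), *mt-Nd4* (158), *mt-Nd2* (149), *mt-Atp6* (106), *mt-Co3* (52.4), *mt-Co2* (20.02), *mt-Nd3* (17.1) and *mt-Nd4l* (4.90). In KO2 it was *mt-Co1* (1291 CPM per kb), *mt-Atp8* (243), *mt-Nd1* (202), *mt-Cytb* (94.9), *mt-Nd5* (85.1), *mt-Nd6* (69.0) and *mt-Nd2* (66.8), followed by *mt-Nd4* (55.1), *mt-Atp6* (53.8), *mt-Co3* (41.5), *mt-Nd3* (16.4), *mt-Co2* (13.7) and *mt-Nd4l* (1.54). *mt-Nd6*, *mt-Atp8* and *mt-Nd5* were within the replicate spread of each other in WT, as were *mt-Nd4* and *mt-Nd2*. Between the groups *mt-Nd5* and *mt-Nd6* changed place, since they were above *mt-Nd1* in WT and below it in KO2. The order is one of counted reads and need not be that of RNA levels. Copies in nuclear DNA, described below, can lower the counts of some genes, and their part in the order was not tested.

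**Figure D2:**
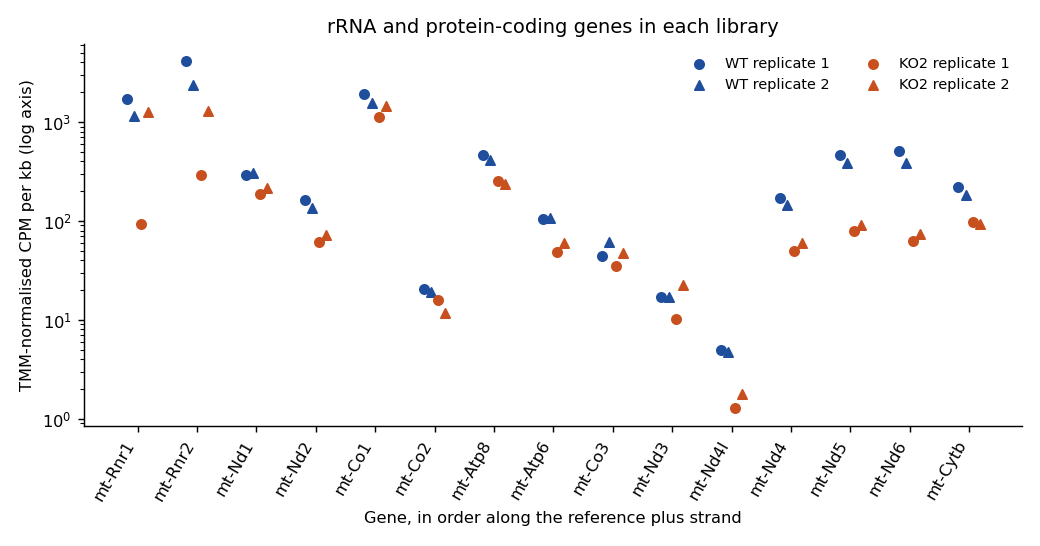
Level of the 2 rRNA and 13 protein-coding genes in each library (TMM-normalised CPM per kb, log axis), in order along the plus strand, with WT in blue and KO2 in orange, replicate 1 as circles and replicate 2 as triangles. WT and KO2 were furthest apart at mt-Nd5 and mt-Nd6, while the rRNA genes differed most between replicates.

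Ratios of counts within a library do not depend on its scaling, and were used to follow the composition. Per 100 counts of *mt-Co1*, 28.9 and 29.4 counts of *mt-Nd5* were found in WT, compared to 8.33 and 7.35 in KO2. Replicates thus differed little, and the WT ratio was 3.72 times the KO2 ratio. The ratio of *mt-Nd6* to *mt-Co1* was 8.95 and 8.29 per 100 in WT and 1.88 and 1.73 per 100 in KO2. For *mt-Nd4* it was 7.95 and 8.38 in WT and 3.93 and 3.71 in KO2, and for *mt-Nd2* 5.68 and 5.93 in WT and 3.67 and 3.32 in KO2. *mt-Nd1* kept overlapping ratios to *mt-Co1*, at 9.56 and 12.4 per 100 in WT and 10.3 and 9.20 in KO2. *mt-Co1* itself made up 56.4% and 54.8% of the protein-coding counts in WT and 70.6% and 73.3% in KO2, and *mt-Nd5* 16.3% and 16.1% in WT and 5.88% and 5.39% in KO2. With 2 libraries a group an exact permutation test of any such ratio cannot go below p = 0.333.

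Along the plus strand the changes did not increase steadily with distance from the rRNA genes. In order, the log2 fold changes of the tested plus-strand coding genes were -0.58 (*mt-Nd1*), -1.15 (*mt-Nd2*), -0.42 (*mt-Co1*), -0.53 (*mt-Co2*), -0.86 (*mt-Atp8*), -0.98 (*mt-Atp6*), -0.36 (*mt-Co3*), -0.06 (*mt-Nd3*, 0.012 with ERCC scaling), -1.52 (*mt-Nd4*), -2.32 (*mt-Nd5*) and -1.09 (*mt-Cytb*). *mt-Nd1* and *mt-Nd2*, which are separated only by tRNA genes, already differed, with 59.4 and 48.0 counts of *mt-Nd2* per 100 of *mt-Nd1* in WT and 35.5 and 36.1 in KO2. *mt-Cytb* lies beyond *mt-Nd5*, yet it was less decreased, and the counts of *mt-Nd5* per 100 of *mt-Cytb* were 338 and 333 in WT and 132 and 155 in KO2. Across the annotated strands, *mt-Nd6* followed *mt-Nd5* more closely, with 30.9 and 28.2 counts per 100 in WT and 22.5 and 23.6 in KO2. Whether the counts of *mt-Nd6* come from the minus strand only is not known, as described below. In the stretch from *mt-Nd5* to *mt-Tt*, which holds *mt-Nd5*, *mt-Cytb* and *mt-Tt* on the plus strand and *mt-Nd6* and *mt-Te* on the minus strand, 5 of 5 genes fell, with a median log2 fold change of -2.06. By contrast, none of the 7 tested genes from *mt-Tw* to *mt-Ts1* was called at an adjusted p under 0.05 (edgeR, 2 at an unadjusted p under 0.05, and 0 with DESeq2). Both stretches were chosen after the values had been seen, so that these counts are not a test. Their outer neighbours differed: *mt-Tp*, after *mt-Tt*, was called higher (1.36), and *mt-Nd2*, before *mt-Tw*, was called lower. Of all tested genes, 3.04% were called lower and 5.64% in either direction.

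**Figure D3:**
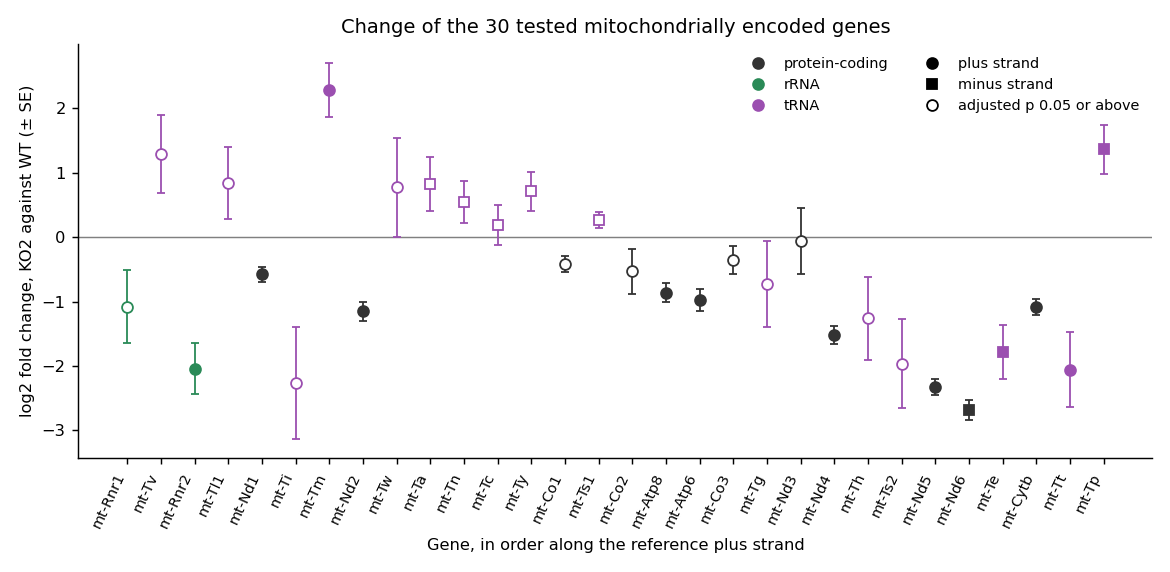
Log2 fold change of KO2 against WT (± SE) for the 30 tested genes in order along the plus strand, by class (colour) and coding strand (circles plus, squares minus), with open symbols for genes that did not pass the test. The lowest values, -2.68 and -2.32, belong to the neighbours mt-Nd6 and mt-Nd5, and the highest, 2.29, to mt-Tm.

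By coding strand, 22 of the 28 plus-strand genes were tested, of which 9 fell and 1 rose. Of the 9 minus-strand genes 8 were tested, and *mt-Nd6* and *mt-Te* fell while *mt-Tp* rose. The tested tRNA genes had a median log2 fold change of -0.73 on the plus strand (9 genes) and of 0.54 on the minus strand (7 genes). The libraries are strand-specific according to the methods, but whether strand was used in counting is not given in the sources used here. To look at this in the counts, nuclear genes of a single exon inside an intron of a gene with at least 20 CPM were compared. Their median level was 0.399 CPM per kb for 197 genes on the strand opposite to the host and 0.562 CPM per kb for 116 on the same strand, which does not settle the setting. Counts of a minus-strand gene that lies opposite to transcribed plus-strand RNA, and the reverse, can therefore not be ascribed to one strand.

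The rRNA genes could not be measured with the same precision. *mt-Rnr2*, which encodes the 16S rRNA of the large mitoribosome subunit, had 6498 and 3768 CPM in WT and 457 and 2038 CPM in KO2. Both KO2 values were lower, but they were far apart from each other, and the log2 fold change was -2.04 (SE 0.39, adjusted p = 0.00351, edgeR). Without KO2 replicate 1 it was -1.33 and without KO2 replicate 2 -3.49, and the call was lost without WT replicate 1 (-1.60, adjusted p = 0.175, edgeR) and with DESeq2 (adjusted p = 0.332). *mt-Rnr1*, which encodes the 12S rRNA of the small subunit, had 1623 and 1108 CPM in WT and 88.9 and 1203 CPM in KO2. Here the groups overlapped, since only KO2 replicate 1 was low, and the gene did not pass the test (log2 fold change -1.08, SE 0.57, adjusted p = 0.313, edgeR). It was -0.18 without KO2 replicate 1 and -3.94, and called, without KO2 replicate 2. Also the ratio of both rRNAs differed between the KO2 replicates, with 19.5 and 59.0 counts of *mt-Rnr1* per 100 of *mt-Rnr2*, against 24.98 and 29.4 in WT.

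The 22 tRNA genes are shorter than typical library fragments, and their counts can come from mature tRNA or from unprocessed precursors that span them. Of the 16 that were tested, 2 fell, 2 rose and 12 did not pass. 1 gene that rose, 1 that fell and *mt-Ts1*, the most abundant tRNA gene in all libraries, are printed 5′ to 3′ on their own strand as DNA, with the anticodon in capitals.
mt-Tm, chrM:3845-3913, plus strand: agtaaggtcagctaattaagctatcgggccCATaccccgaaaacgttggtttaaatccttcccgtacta
mt-Te, chrM:14071-14139, minus strand: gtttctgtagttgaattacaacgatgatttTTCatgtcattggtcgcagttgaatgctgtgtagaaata
mt-Ts1, chrM:6870-6938, minus strand: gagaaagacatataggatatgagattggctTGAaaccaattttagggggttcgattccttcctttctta

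*mt-Tm*, the methionine tRNA gene next to *mt-Nd2*, had 25 and 36 counts in WT and 507 and 164 counts in KO2. After normalisation these were 9.32 and 8.51 CPM in WT and 64.3 and 21.9 CPM in KO2. Both KO2 replicates were higher than both WT replicates but differed among themselves, and the increase was 4.88-fold (log2 fold change 2.29, SE 0.42, adjusted p = 0.00246, edgeR). Its call was lost without WT replicate 1 (adjusted p = 0.0684) and without WT replicate 2 (adjusted p = 0.0613, both edgeR), and the log2 fold change without KO2 replicate 1 was 1.31. Compared to its neighbour *mt-Nd2*, which fell, *mt-Tm* had 5.56 and 6.01 counts per 100 in WT and 100 and 29.5 counts per 100 in KO2.

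*mt-Tp*, the proline tRNA gene at the end of the gene order (chrM:15356-15422, minus strand), had 9.69 and 8.51 CPM in WT and 14.7 and 31.7 CPM in KO2. The groups did not overlap, but the gene was not called with DESeq2, under ERCC scaling or without a filter. The log2 fold change was 1.36 (SE 0.38, adjusted p = 0.0428, edgeR). It was 0.71 without KO2 replicate 2 (adjusted p = 0.419, edgeR) and lost its call also without either WT replicate. *mt-Te*, the glutamate tRNA gene that borders on *mt-Nd6* without a gap, had 17.1 and 11.6 CPM in WT and 3.93 and 4.14 CPM in KO2. This was a decrease without overlap (log2 fold change -1.78, SE 0.41, adjusted p = 0.0141, edgeR), whose call was lost without WT replicate 1 (adjusted p = 0.130, edgeR). It was smaller than that of *mt-Nd6*, and the counts of *mt-Te* per 100 of *mt-Nd6* were 6.49 and 5.85 in WT and 11.97 and 10.7 in KO2. *mt-Tt*, the threonine tRNA gene after *mt-Cytb*, had 8.20 and 5.43 CPM in WT and 1.65 and 1.47 CPM in KO2, from only 11 to 23 counts per library (log2 fold change -2.06, SE 0.58, adjusted p = 0.0454, edgeR), and its call was lost whichever library was left out.

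*mt-Ts1* had 108 and 106 CPM in WT and 122 and 135 CPM in KO2 (log2 fold change 0.26, SE 0.13, adjusted p = 0.278, edgeR). Its replicates lay close together, and the ratio to the gene it overlaps, *mt-Co1*, was 3.66 and 4.45 per 100 in WT and 6.96 and 6.04 per 100 in KO2. The minus-strand tRNA genes *mt-Ta*, *mt-Tn*, *mt-Tc* and *mt-Ty*, for alanine, asparagine, cysteine and tyrosine, lie together between *mt-Nd2* and *mt-Co1*. None was called (edgeR, 1 at an unadjusted p under 0.05, and 0 with DESeq2), and their log2 fold changes were 0.82, 0.54, 0.19 and 0.71. In each of these 4 genes KO2 replicate 2 was the highest library, and without it the value of *mt-Ta* was -0.10 and that of *mt-Tc* -0.37. *mt-Tv*, the valine tRNA gene between the rRNA genes, had 3.73 and 4.49 CPM in WT and 16.1 and 4.28 CPM in KO2, so that only KO2 replicate 1 was high (adjusted p = 0.247, edgeR). *mt-Tl1* had 2.61 and 3.31 CPM in WT and 6.21 and 4.68 CPM in KO2 (adjusted p = 0.447, edgeR). *mt-Tw* was listed at 0 counts in WT replicate 1, which allows up to 1.12 CPM at that depth, and at 13, 29 and 20 counts in the other libraries.

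Lower values in KO2 that did not pass the test were found for *mt-Ti* (1.86 and 3.07 CPM in WT, 0.254 and 0.802 CPM in KO2), *mt-Th* (6.34 and 5.67 CPM in WT, 4.18 and 0.668 CPM in KO2) and *mt-Ts2* (5.96 and 3.31 CPM in WT, 0.888 and 1.34 CPM in KO2). Their log2 fold changes were -2.27 (SE 0.87), -1.26 (SE 0.65) and -1.96 (SE 0.69). *mt-Tg* had 5.22 and 7.09 CPM in WT and 0.761 and 6.95 CPM in KO2, where only KO2 replicate 1 was low, and it was called without KO2 replicate 2 (-3.02, adjusted p = 0.0374, edgeR). These genes had at most 52 counts in any library.

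Nuclear DNA holds copies of mitochondrial sequence, and reads that match more than one place equally well are left out by the counting tool. The share of gene sequence at risk was measured by searching the mm9 genome for exact copies of every 75-base and 43-base window of each gene outside the mitochondrial chromosome. The read length of the RNA-seq is not given in the sources used here, and these lengths stand for longer and shorter reads. At least 75 bases were copied in 26 stretches, of which the longest, 3067 bp and 1582 bp, lie next to each other on chromosome 1 within 4650 bp (chr1:24619957-24623023 and chr1:24618374-24619955, minus orientation) and hold *mt-Co2*, *mt-Atp8*, *mt-Atp6*, *mt-Co3*, *mt-Nd3* and *mt-Nd4l*. Neighbouring copied windows were merged into stretches. The stretch of 1582 bp pairs with chrM:9462-11042, which differs in length, so that it is not an exact copy throughout. An example from within *mt-Co2* is printed because a read that lies within it matches several places.
mt-Co2, chrM:7163-7237, plus strand: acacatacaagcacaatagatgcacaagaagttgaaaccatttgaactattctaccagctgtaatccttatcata
Exact copies of these 75 bases lie at chr1:24622180-24622254 and chr2:22443258-22443332, both in minus orientation.

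All 75-base windows of *mt-Co2*, *mt-Atp8*, *mt-Atp6*, *mt-Co3* and *mt-Nd4l* and 98.9% of those of *mt-Nd3* had a copy, against 61.5% for *mt-Nd4*, 39.8% for *mt-Co1*, 5.7% for *mt-Nd2*, 1.7% for *mt-Nd5* and none for *mt-Nd1*, *mt-Nd6* and *mt-Cytb*. Among the 6 almost fully copied genes 5 were tested and 2 fell, while among the other 7 genes 7 were tested and 6 fell. In single WT libraries the former measured 4.77 to 469 CPM per kb and the latter 136 to 1911 CPM per kb, so that the 2 ranges overlapped. The 3 coding genes with the largest decreases were *mt-Nd6*, without a copied 75-base or 43-base window, *mt-Nd5* (1.7% of 75-base windows) and *mt-Nd4* (61.5%). Of the tRNA genes that changed, *mt-Tm* and *mt-Tp* had no copied 43-base window. For *mt-Tt* 8.0% of these windows had a copy, and for *mt-Te* all had one. Of 8 annotated nuclear genes that contain a copied stretch of at least 75 bases, 7 were matched to the count tables, all but *Gm10925*, and 1 had enough counts to be tested. This was *Gm13340*, at 37.6 and 30.2 CPM in WT and 26.4 and 28.6 CPM in KO2 (log2 fold change -0.29, SE 0.21, adjusted p = 0.510, edgeR). The alignments that were not unique made up 37.02% and 40.4% of all counted rows in WT and 35.6% and 35.6% in KO2, and how many of them were mitochondrial was not tested.

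**Figure D4:**
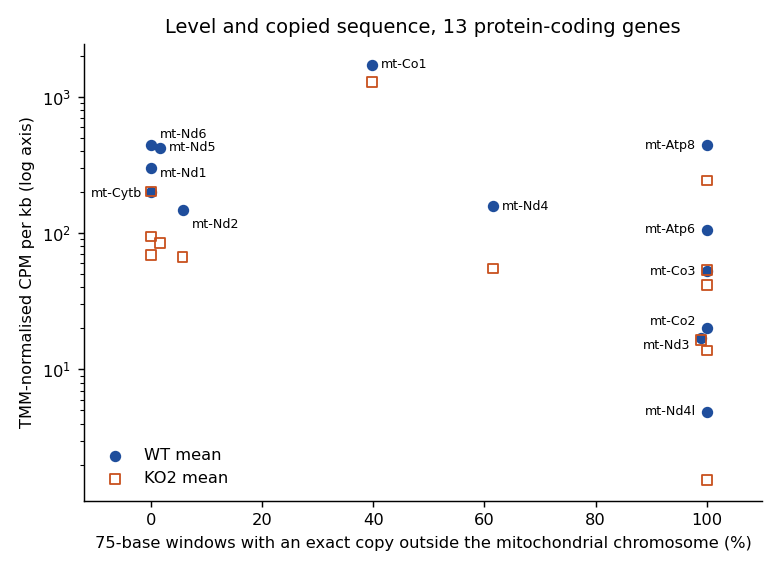
Mean level of the 13 protein-coding genes in WT (filled circles) and KO2 (open squares), as TMM-normalised CPM per kb on a log axis, against the share of their 75-base windows with an exact copy outside the mitochondrial chromosome (%). The 6 genes at 98.9 to 100% include the 4 lowest, mt-Co3, mt-Co2, mt-Nd3 and mt-Nd4l, as well as mt-Atp8 at 443 CPM per kb in WT.

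Finally, the nuclear genes that make and maintain mitochondrial RNA were examined. Of 93 listed genes 92 were found and 89 tested, and 1 fell and 1 rose, or 2 of 89 against the 5.64% of all tested genes called in either direction. Their median log2 fold change was 0.06. The gene that fell was *Trmt10c*, a subunit of the mitochondrial RNase P that cuts the 5′ ends of tRNAs, with 117 and 86.0 CPM in WT and 69.1 and 68.6 CPM in KO2. Its decrease was small (log2 fold change -0.55, SE 0.16, adjusted p = 0.0467, edgeR), and its adjusted p was 0.318 without WT replicate 1, 0.112 without KO2 replicate 1 and 0.0873 without KO2 replicate 2 (all edgeR). The gene that rose was *Pprc1*, a member of the PGC-1 family of coactivators, with 64.1 and 57.4 CPM in WT and 105 and 93.6 CPM in KO2 (log2 fold change 0.71, SE 0.15, adjusted p = 0.00702, edgeR). Its adjusted p was 0.0640 without WT replicate 2 (edgeR). In both genes the groups did not overlap. With all libraries kept, *Trmt10c* was not called with DESeq2 (adjusted p = 0.102) or edgeR's older quasi-likelihood method (adjusted p = 0.0586). *Pprc1* was called with both. Neither gene was called under ERCC scaling or without a filter (edgeR).

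By role, none of the 11 transcription genes was called at an adjusted p under 0.05 (median log2 fold change -0.13). Among them, *Polrmt*, the mitochondrial RNA polymerase, had a log2 fold change of 0.23 (SE 0.24, adjusted p = 0.659, edgeR) and *Tfam*, which binds and packages mitochondrial DNA, one of -0.13 (SE 0.13, adjusted p = 0.656, edgeR). The 15 tested genes of DNA replication and upkeep, the 12 of RNA stability and decay, the 22 of tRNA and rRNA modification and the 14 translation factors also held no called gene, with medians of -0.13, 0.03, 0.11 and 0.11. In these 5 lists together, 7 of 74 tested genes had an unadjusted p under 0.05 with edgeR, and DESeq2 called 0. Since 5.64% of all tested genes were called, lists of this size would hold few or no calls at that share. *Lrpprc* and *Slirp*, which form a complex that stabilises mitochondrial mRNAs, had log2 fold changes of 0.06 (SE 0.11) and 0.34 (SE 0.20). At an unadjusted p under 0.05, 11 of the listed genes differed with edgeR. The share of all tested genes under that threshold was not determined, so that neither this count nor the 7 of 74 can be set against it. At an adjusted p under 0.05, 2.61% of all tested genes were higher and 3.04% lower. Of 77 nuclear genes whose symbols name subunits of respiratory complexes I to V, 76 were tested, none rose (edgeR, 6 at an unadjusted p under 0.05, and 0 with DESeq2) and 1 fell. This was *Ndufa4l2*, a relative of *Ndufa4* that is induced under low oxygen, at 4.84 and 8.03 CPM in WT and 0.634 and 1.07 CPM in KO2 (log2 fold change -2.96, SE 0.66, adjusted p = 0.0108, edgeR, and 0.191 without WT replicate 2 or 0.0759 without KO2 replicate 1). The 77 genes summed to 9529 and 8875 CPM in WT and 9347 and 8985 CPM in KO2, so that the groups overlapped, and their median log2 fold change was -0.0058 where that of the mitochondrially encoded subunits was -0.92.

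**Figure D5:**
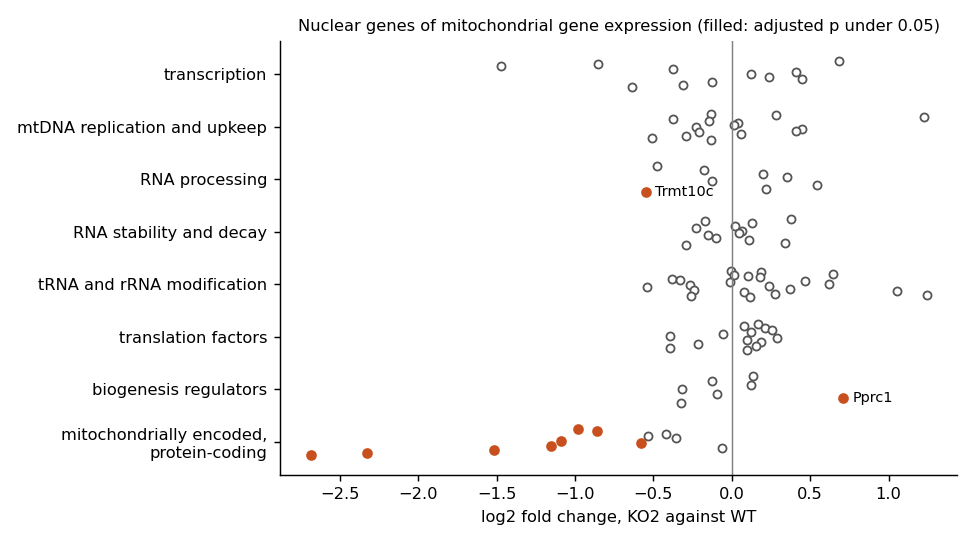
Log2 fold change of KO2 against WT for the 89 tested nuclear genes of mitochondrial gene expression, by role, and for the 12 tested mitochondrial protein-coding genes, with filled points for an adjusted p under 0.05. Trmt10c (-0.55) and Pprc1 (0.71) are the only filled nuclear points, while 8 of the 12 mitochondrial genes are filled.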

How the data were processed

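RNA-seq was analysed for 2 WT and 2 KO2 libraries, with groups and replicate numbers taken from the sample labels. The authors mapped reads to mm9 with HISAT2 and deposited raw counts per gene made with HTSeq, neither normalized nor pooled. Tool versions, annotation release, strand setting and overlap mode are not given in the sources used here. HTSeq's summary rows and 92 ERCC spike-in rows were kept out of library sizes and tests, and counts on genes made up 41.2 to 47.1% of all rows. The depth gave a floor of 3 counts at 1.12, 0.709, 0.380 and 0.401 CPM in WT replicates 1 and 2 and KO2 replicates 1 and 2.

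Counts were filtered with filterByExpr (minimum count 10, minimum total 15), scaled by TMM and tested with edgeR 4.0.16 in R 4.3.3 (limma 3.58.1, glmQLFit with legacy=FALSE and glmQLFTest, condition as the only term). All adjusted p-values are Benjamini-Hochberg values over the 12883 tested genes, with a threshold of 0.05. The SE of a log2 fold change from edgeR was derived as its absolute value divided by the square root of the test's F statistic. The study used DESeq2, which was run as an alternative (version 1.42.0). On simulated counts of 12883 genes for this comparison, 139 of 200 changed genes were recovered with 1 false call. Shares were compared with an exact permutation test in SciPy 1.17.1. Gene coordinates, overlaps and sequences came from NCBIM37 and its GENCODE annotation. Alternatives were RLE normalization, TMM without the mitochondrial genes, ERCC scaling, no filter, at least 10 counts in every library, DESeq2, a replicate block, edgeR's older quasi-likelihood method, leaving out each library, and, added after seeing the data, leaving out the rRNA genes.

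All 37 mitochondrial genes were accounted for. From the nuclear list the genes called at an adjusted p under 0.05 were named, with a few regulators and subunits chosen after their values had been seen. The members and lists were chosen with earlier results of these data known, and the list of nuclear subunits was added after the counts had been seen.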

Additional observations from a re-analysis of the deposited data

How the results depend on the processing

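The count of 11 genes lower in KO2 was 5 under ERCC scaling, 4 without a filter, where 25397 genes were tested, and 8 to 13 when single libraries were left out, with the remaining library of a group assumed to vary like the other group. The 2 genes higher in KO2 became 1 under ERCC scaling, 1 with DESeq2 and 0 without a filter (edgeR), with 3 at an unadjusted p under 0.05, and 0 to 3 when single libraries were left out. The 0 was found without WT replicate 1 and without WT replicate 2 (edgeR), with 3 and 4 at an unadjusted p under 0.05. The 2 called nuclear genes of mitochondrial gene expression became 0 under ERCC scaling (edgeR, 3 at an unadjusted p under 0.05), 0 without a filter (10), 1 with DESeq2, 1 with the older quasi-likelihood method and 1 whichever single library was left out. Without a filter the median log2 fold change of all tested genes moved by 0.11, and the other scalings moved it by less. The sign of *mt-Nd3* changed under ERCC scaling (0.012) and when single libraries were left out (-0.74 to 0.41, above 0 without KO2 replicate 1). So did those of *mt-Tg* (-3.02 to 0.14, above 0 without KO2 replicate 1), *mt-Ta* (-0.10 to 1.77) and *mt-Tc* (-0.37 to 0.58, both below 0 without KO2 replicate 2), and none of these genes was called in the main comparison. The log2 ratio of the mitochondrial share ranged from -1.66 to -0.73, with no test, when single libraries were left out. The cause of these changes was not tested.

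Under the replicate block, 12 genes were lower, 3 were higher and 2 nuclear genes were called. The numbers pair the libraries by number only, since the deviations of libraries with the same number had a correlation of -0.0066. The block newly called *mt-Rnr1* and *mt-Ta* and lost no call. With DESeq2, 9 genes were lower, and *mt-Rnr2*, *mt-Tt* and *mt-Tp* lost their call. With the older quasi-likelihood method 10 were lower, and *mt-Tt* lost its call. Calls of *mt-Tt* and *mt-Tp* were lost also under ERCC scaling and without a filter. Of the 22 tRNA genes, 6 had too few counts to be tested. The part of depth, gene length and copied sequence in this was not tested.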
